A study of Mus musculus with 12 samples.

Results

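The genes Zbtb16, Neurog3, Sox3, Foxo1, Taf4b, Upp1, Cdh1 and Glis3 are known from undifferentiated spermatogonia, the germ cells that hold the stem cells of the testis and the progenitors formed from them. They were followed over knockouts of Sohlh2 and Sohlh1. The members were all probe sets annotated to exactly 1 of these 8 genes, which gave 17 of the 45101 probe sets of the array and 8 of 18194 singly named genes. Zbtb16 had 3 probe sets, Neurog3 and Sox3 had 2 each, Foxo1 had 4, Taf4b had 3, and Upp1, Cdh1 and Glis3 had 1 each. RNA from whole testes at postnatal day 7 was measured on 12 Affymetrix arrays, 4 from homozygous Sohlh2 knockout (Sohlh2-/-) mice, 4 from homozygous Sohlh1 knockout (Sohlh1-/-) mice and 4 from wild-type mice. All 3 groups were on a mixed genetic background described as C57BL/6, 129S5, SvEvBrd hybrid, and the labels name no agent. Since 3 testes from different animals were pooled for every array, a standard deviation (SD) over arrays describes pools and not single animals. Signals have arbitrary units on a linear scale and cannot be compared between probe sets.

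Spermatogonial stem cells depend on GDNF from the supporting Sertoli cells. The cells formed from them pass through a progenitor state, and then differentiate under retinoic acid while they turn on the receptor Kit. SOHLH1 and SOHLH2 are basic helix-loop-helix transcription factors that act in this transition, and such factors bind E-boxes, short DNA motifs of the form CANNTG. Among the members, Zbtb16 (PLZF), Foxo1 and Taf4b are known for roles in keeping the stem cell pool, while Neurog3 and Sox3 mark progenitors. Cdh1 encodes E-cadherin, a cell adhesion protein on the surface of undifferentiated spermatogonia. Glis3 encodes a zinc finger transcription factor needed for the early steps of spermatogenesis, and Upp1 encodes uridine phosphorylase, which splits uridine.

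Of the genes whose signals passed the test below, Neurog3 and Glis3 had a promoter window in RefSeq (GRCm38.p6), running from 250 bases before to 50 bases after the gene's start. The windows of these genes, which went in opposite directions in the Sohlh1 knockout, are shown to let their E-boxes be compared. The Neurog3 window lies at chr10:62132840-62133139 on the + strand and that of Glis3 at chr19:28680028-28680327 on the - strand. Both are written 5′ to 3′ along the gene, with the E-box in capitals.
Neurog3: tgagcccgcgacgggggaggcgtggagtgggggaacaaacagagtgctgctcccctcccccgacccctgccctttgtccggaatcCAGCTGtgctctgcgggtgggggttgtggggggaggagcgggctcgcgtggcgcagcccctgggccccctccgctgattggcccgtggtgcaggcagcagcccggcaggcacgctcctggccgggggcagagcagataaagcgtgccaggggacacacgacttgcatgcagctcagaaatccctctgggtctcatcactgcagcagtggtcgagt
Glis3: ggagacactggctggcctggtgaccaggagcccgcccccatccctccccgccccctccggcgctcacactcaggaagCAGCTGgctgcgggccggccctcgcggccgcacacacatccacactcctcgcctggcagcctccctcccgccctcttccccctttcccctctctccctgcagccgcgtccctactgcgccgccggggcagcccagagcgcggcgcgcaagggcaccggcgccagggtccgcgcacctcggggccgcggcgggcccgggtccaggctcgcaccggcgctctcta
Each window held 1 E-box, and in both it read CAGCTG, starting 165 bases before the Neurog3 start and 173 bases before the Glis3 start. CANNTG reads the same on both strands, so 1 search covered both. At least 1 E-box was present in 72.3% of all 32851 such windows, and CAGCTG in 16.3%. Of the members without a called probe set, Upp1 also held CAGCTG in each of its windows, and Foxo1 held CACTTG in its window. CAGCTG was therefore not particular to the called members. A match is a description of the letters and not of binding, and the array data do not measure binding.

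The targeted genes were read first, because they check the labels. The array labelled Sohlh2 knockout 1 had a Sohlh2 signal of 1847, while its group's other arrays, 3-1, 4 and 5, had 73.2 to 157 and wild type had 885 to 1200.3. The array labelled Sohlh1 knockout 5 had a Sohlh1 signal of 595, while its group's other arrays, 2, 3 and 4, had 50.2 to 104 and wild type had 1125 to 1233. On the same Sohlh2 knockout 1 array Sohlh1 stood at 126, and on the Sohlh1 knockout 5 array Sohlh2 stood at 94.4. Sohlh2 stood at 1556 to 1783 on the Sohlh1 knockout arrays 2, 3 and 4, and Sohlh1 at 465 to 563 on the Sohlh2 knockout arrays 3-1, 4 and 5. For both genes these 2 arrays were therefore nearer to the other knockout's arrays than to those of their own label. The labels do not say which parts were deleted, but both signals were low on the other arrays of the knockout concerned. Whether the 2 arrays were exchanged was not tested, and they were kept in their labelled groups. The arrays labelled Sohlh2 knockout 1 and Sohlh1 knockout 2 also had a mean 3' to 5' signal ratio of the control transcripts Actb and Gapdh of 2.41 and 1.56, against 0.987 to 1.08 on the other arrays, a measure of RNA quality. Where leaving out these arrays changes a call or a count of calls, both values are given. Markers of germ cells fixed as a list gave summed signals of 26223 to 29666 in Sohlh2 knockout, 25269 to 29038 in Sohlh1 knockout and 25853 to 29164 in wild-type testes, so the groups overlapped. Of its 7 tested genes Dppa4 and Stk31 rose in both knockouts and the others did not pass.

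The progenitor markers Sox3 and Neurog3 fell in both knockouts, and Glis3 rose in the Sohlh1 knockout. Of the 17 member probe sets 16 were bright enough to be tested, each reaching a signal of 48.6 on at least 4 arrays, and a change was called where limma's p, adjusted by Benjamini and Hochberg over all 28694 tested probe sets, lay under 0.05. In Sohlh2 knockout testes 2 member probe sets fell and 0 rose, against 0.944% of all tested probe sets that fell and 0.606% that rose (1.55% in either direction). In Sohlh1 knockout testes 2 fell and 1 rose, against 1.38% that fell and 0.707% that rose (2.09% in either direction). The 2 that fell were those of highest signal for Sox3 and Neurog3. The members were chosen with earlier results of these data known, so these counts are descriptions and not a test of the group. Between the knockouts 0 member probe sets passed, at 0% of all tested probe sets, and 0 members had an unadjusted limma p under 0.05, which 767 of all probe sets did. The targeted genes Sohlh1 and Sohlh2 did not pass there either, at log2 differences of 1.46 and -1.84, Sohlh2 minus Sohlh1 knockout. Each group held 1 array whose targeted genes go against its label, so this comparison cannot tell whether the knockouts differ. In whole testes, fewer cells of a type and less RNA per cell cannot be told apart. The wild-type arrays are shared by both knockout comparisons.

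Sox3, which encodes a SOX transcription factor of spermatogonial progenitors, fell to 49.5% of its wild-type mean in the Sohlh2 knockout and 46.1% in the Sohlh1 knockout. Its brighter probe set 1435192_at had signals of 682, 737, 761 and 848 on the Sohlh2 knockout arrays 1, 3-1, 4 and 5, of 588, 629, 823 and 781 on the Sohlh1 knockout arrays 2, 3, 4 and 5, and of 1319.8, 1500.3, 1508 and 1787 on the wild-type arrays 3, 4, 5 and 6. Every knockout array lay below every wild-type array. The means were 757 ± 69.0 in Sohlh2 knockout, 705 ± 114 in Sohlh1 knockout and 1529 ± 193 in wild-type testes (SD, n = 4 each). The log2 fold change was -0.997 ± 0.13 (SE) in the Sohlh2 knockout, with adjusted p = 0.000946 by limma. In the Sohlh1 knockout it was -1.11 ± 0.13, with adjusted p = 0.000408 by limma. The call held in all 28 alternatives for both, including those without the doubted arrays. The dimmer Sox3 probe set 1450485_at averaged 93.5 ± 43.7 in Sohlh2 knockout, 112 ± 23.6 in Sohlh1 knockout and 211 ± 76.9 in wild-type testes. Its groups overlapped, and neither log2 fold change, -1.09 and -0.79 in the Sohlh2 and Sohlh1 knockouts, passed the test (limma adjusted p = 0.0945 and 0.222).

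**Figure D1:**
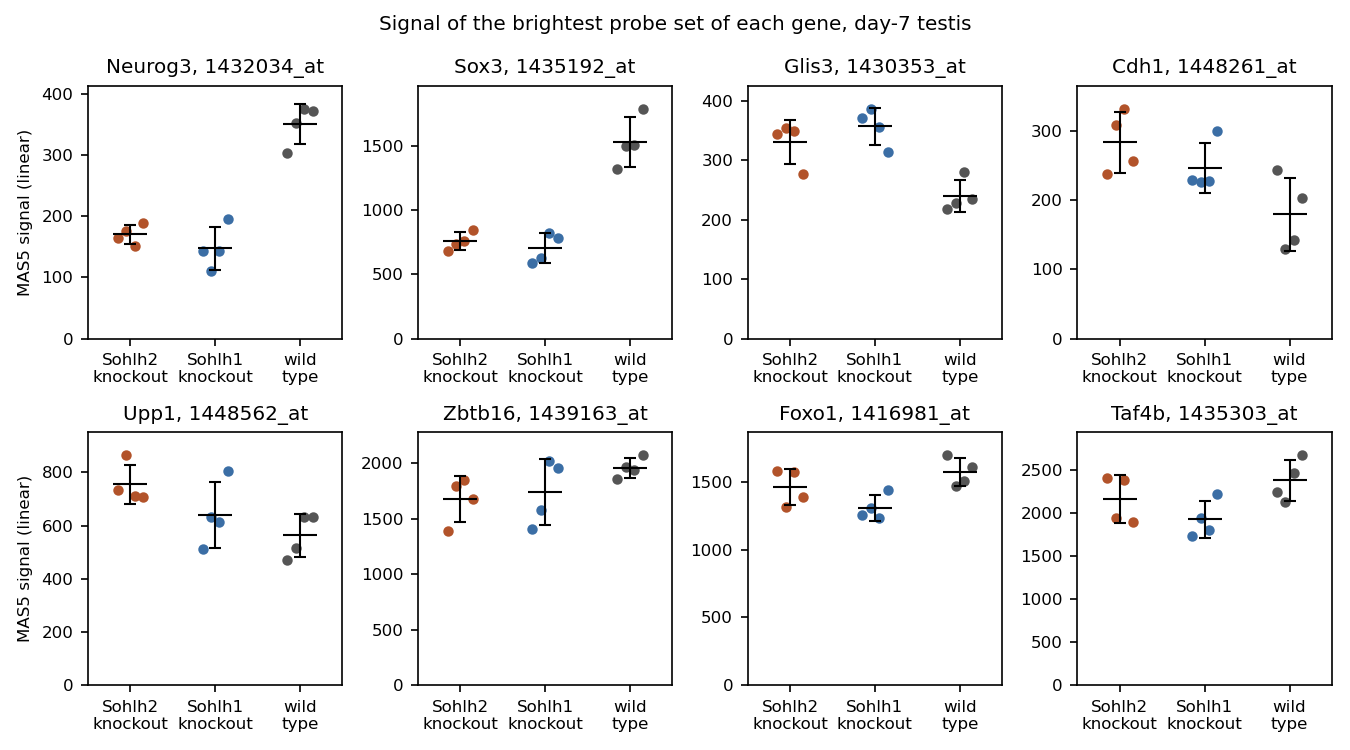
Signals of the brightest probe set of each of the 8 genes, 1 panel per gene, with linear axes that start at 0 and arbitrary signal units. Each point is 1 array, placed under Sohlh2 knockout, Sohlh1 knockout or wild type, and lines with bars are group means and SD, and the wild-type points of Sox3 1435192_at and Neurog3 1432034_at sit above all knockout points.

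Neurog3, the basic helix-loop-helix factor neurogenin 3 that marks progenitors, also fell in both knockouts. The probe set 1432034_at had signals of 165, 176, 152 and 189 on the Sohlh2 knockout arrays, of 142, 111, 142 and 195 on the Sohlh1 knockout arrays, and of 303, 352, 375 and 372 on the wild-type arrays. No knockout array reached the lowest wild-type array. The knockout means were 170 ± 15.7 in Sohlh2 and 148 ± 35.1 in Sohlh1, against 351 ± 33.2 in wild type (SD, n = 4 each), or 48.5% and 42.1% of the wild-type mean. The log2 fold change was -0.98 ± 0.16 (SE, limma adjusted p = 0.00719) in the Sohlh2 knockout, where the call held in 27 of 28 alternatives. The Sohlh1 knockout gave -1.19 (95% confidence interval -1.54 to -0.84, limma adjusted p = 0.00146), called in all 28. The second probe set, 1422312_a_at, was dim and was tested only through wild type: its signal lay above 48.6 on 1 Sohlh2 knockout array, 0 Sohlh1 knockout arrays and 4 wild-type arrays. It stood at 7.23 to 71.7 in Sohlh2 knockout, 6.54 to 46.2 in Sohlh1 knockout and 60.4 to 98.3 in wild-type testes. Its log2 fold changes of -1.31 in both knockouts did not pass (limma adjusted p = 0.203 in the Sohlh2 knockout and 0.179 in the Sohlh1 knockout), and its Sohlh2 knockout and wild-type groups overlapped.

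Glis3 rose in the Sohlh1 knockout. Its single probe set 1430353_at had signals of 344, 355, 349 and 277 on the Sohlh2 knockout arrays, of 372, 386, 356 and 314 on the Sohlh1 knockout arrays, and of 217, 228, 279.8 and 235 on the wild-type arrays. All 4 Sohlh1 knockout arrays and 3 of 4 Sohlh2 knockout arrays lay above the highest wild-type array. The means were 331 ± 36.6, 357 ± 31.2 and 240.0 ± 27.5 in Sohlh2 knockout, Sohlh1 knockout and wild-type testes (SD, n = 4 each). The rise in the Sohlh1 knockout was 1.46-fold on the offset scale, a log2 fold change of 0.55 (95% confidence interval 0.27 to 0.83, limma adjusted p = 0.0469). That call sat at the threshold: it passed in 10 of 28 alternatives and in 2 of 12 with an array left out, with limma adjusted p between 0.0214 and 0.191. The call was kept when the Sohlh2 knockout array 1 or 5 was left out and lost when any of the other 10 arrays was. The adjusted p by limma was 0.0590 when both arrays with a raised 3' to 5' ratio were left out, and 0.0820 without all 3 doubted arrays. In the Sohlh2 knockout the log2 fold change of 0.44 (95% confidence interval 0.16 to 0.72) did not pass (limma adjusted p = 0.132).

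**Figure D2:**
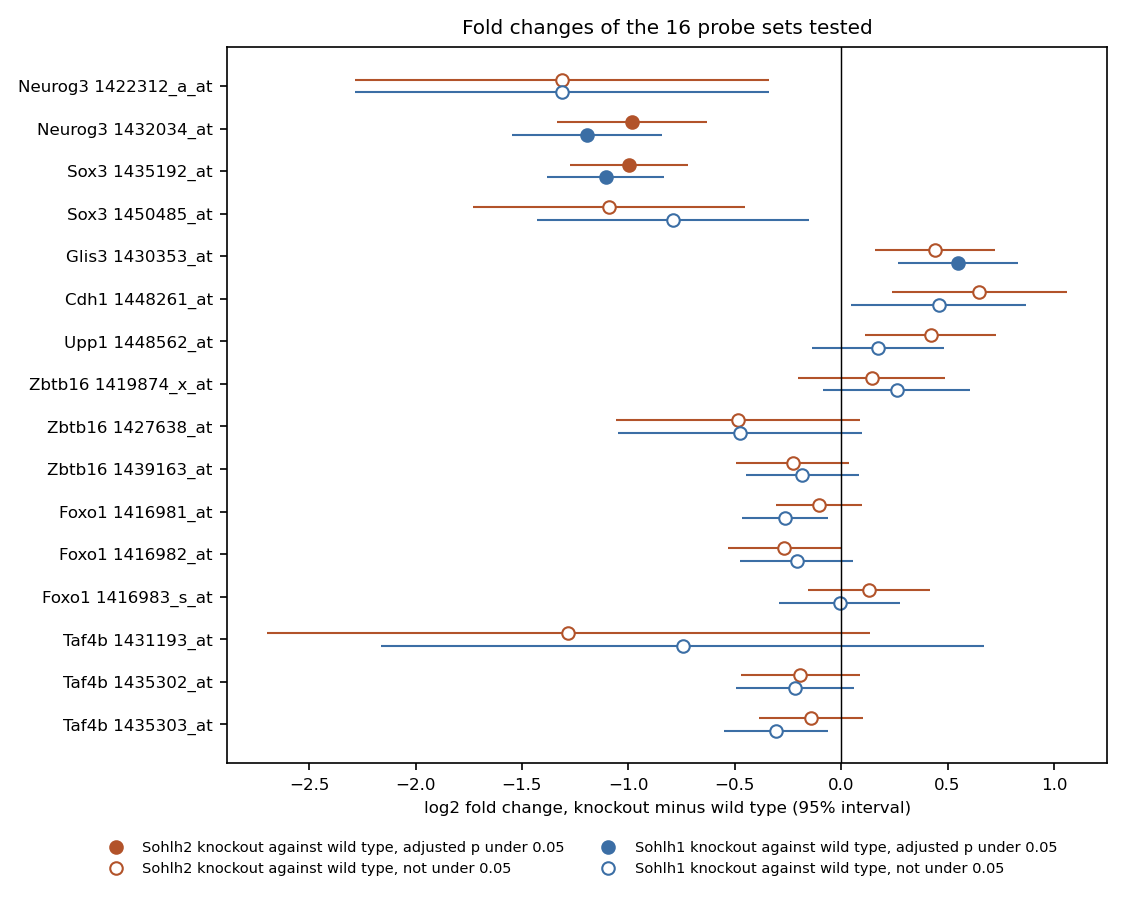
Log2 fold changes of the 16 tested member probe sets against wild type, for the Sohlh2 knockout and the Sohlh1 knockout, with 95% confidence intervals as bars. Filled points have an adjusted p under 0.05, which the probe sets Sox3 1435192_at and Neurog3 1432034_at reach in both knockouts and Glis3 in the Sohlh1 knockout.

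Within each array the difference between the log2 signals of Sox3 and Glis3 was taken as a description of unequal change, not as a level of one gene against the other. Sox3 minus Glis3 was 0.96 to 1.57 in Sohlh2 knockout, 0.64 to 1.28 in Sohlh1 knockout and 2.37 to 2.86 in wild-type arrays. The same difference for Neurog3 minus Glis3 was -1.13 to -0.52 in Sohlh2 knockout, -1.68 to -0.65 in Sohlh1 knockout and 0.41 to 0.63 in wild-type arrays. That these ranges do not overlap with wild type follows already from Sox3 and Neurog3, and the genes were chosen for their opposite shifts. Glis3 itself overlapped with wild type in the Sohlh2 knockout.

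Cdh1 and Upp1 had higher signals in the knockouts that did not pass the test. Cdh1, probe set 1448261_at, had signals of 238, 309, 332 and 257 on the Sohlh2 knockout arrays, of 230.2, 227, 228 and 301 on the Sohlh1 knockout arrays, and of 243, 130.0, 143 and 203 on the wild-type arrays. The wild-type array 3 lay above the Sohlh2 knockout array 1 and above 3 of 4 Sohlh1 knockout arrays, so the groups overlapped. The means were 284 ± 43.9, 247 ± 36.3 and 180 ± 52.9 in Sohlh2 knockout, Sohlh1 knockout and wild-type testes (SD, n = 4 each). The log2 fold change was 0.65 (95% confidence interval 0.24 to 1.06, limma adjusted p = 0.128) in the Sohlh2 knockout and 0.46 (limma adjusted p = 0.279) in the Sohlh1 knockout. Upp1, probe set 1448562_at, had signals of 735, 864, 713 and 707 on the Sohlh2 knockout arrays, of 510.0, 631, 612 and 806 on the Sohlh1 knockout arrays, and of 471, 516, 634 and 630.4 on the wild-type arrays. All 4 Sohlh2 knockout arrays lay above the wild-type arrays, while the Sohlh1 knockout arrays overlapped with them. The Upp1 log2 fold change was 0.42 (95% confidence interval 0.11 to 0.73, limma adjusted p = 0.197) in the Sohlh2 knockout and 0.17 (limma adjusted p = 0.619) in the Sohlh1 knockout.

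Zbtb16, Foxo1 and Taf4b, the members known for keeping the stem cell pool, had no probe set that passed the test in either knockout. Zbtb16, whose product PLZF is a zinc finger repressor, averaged 1678 ± 205 in Sohlh2 knockout, 1741 ± 298 in Sohlh1 knockout and 1957 ± 87.1 in wild-type testes at its brightest probe set 1439163_at. The Sohlh2 knockout arrays lay between 1390.1 and 1852, just below the lowest wild-type array at 1859, and the log2 fold change was -0.23 (limma adjusted p = 0.449). Its probe sets disagreed, since 1419874_x_at had log2 fold changes of 0.14 and 0.26 and 1427638_at had -0.49 and -0.48 in the Sohlh2 and Sohlh1 knockouts, and none passed. Foxo1, a forkhead factor that is held out of the nucleus by growth factor signals, averaged 1466 ± 133, 1310 ± 93.9 and 1574 ± 102 at its probe set 1416981_at in Sohlh2 knockout, Sohlh1 knockout and wild-type testes. Its log2 fold changes were -0.10 and -0.26 (limma adjusted p = 0.677 and 0.198 in the Sohlh2 and Sohlh1 knockouts). The Sohlh1 knockout arrays, at 1237 to 1444, all lay below the lowest wild-type array at 1475, while the Sohlh2 knockout arrays overlapped with wild type. Foxo1 probe set 1416982_at had log2 fold changes of -0.27 and -0.21, and 1416983_s_at had 0.13 and -0.0076, so the Foxo1 probe sets differed in sign in the Sohlh2 knockout and were all below 0 in the Sohlh1 knockout. The Foxo1 probe set 1456529_at was too dim to test, at 2.0 to 16.3 in Sohlh2 knockout, 2.1 to 8.0 in Sohlh1 knockout and 7.8 to 23.9 in wild-type testes. Taf4b, a subunit of the general transcription factor TFIID that is enriched in gonads, averaged 2163 ± 279, 1929 ± 219 and 2383 ± 240 at probe set 1435303_at in Sohlh2 knockout, Sohlh1 knockout and wild-type testes. Its log2 fold changes were -0.14 and -0.30 (limma adjusted p = 0.632 and 0.218 in the Sohlh2 and Sohlh1 knockouts), and those of 1435302_at were -0.19 and -0.22. The dim probe set 1431193_at ran from 5.25 on the Sohlh2 knockout array 1 to 279 in Sohlh2 knockout, from 95.3 to 273 in Sohlh1 knockout and from 143 to 481 in wild type, and its log2 fold change in the Sohlh2 knockout was -1.28, or -0.42 without that array.

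Counts over the tested members are descriptions. The groups did not overlap for 4 of 16 tested probe sets in the Sohlh2 knockout comparison, against 8.82% of all tested probe sets, and for 5 of 16 in the Sohlh1 knockout comparison, against 11.2%. An unadjusted limma p under 0.05 was reached by 8 of 16 in each comparison, and by 3870 of all probe sets in the Sohlh2 and 4286 in the Sohlh1 knockout comparison. Leaving out Neurog3 1422312_a_at, which was tested only through wild type, the groups did not overlap for 4 of 15 in each comparison, and 7 of 15 reached that unadjusted p. The log2 difference between the knockouts, Sohlh2 minus Sohlh1, was 0.11 (95% confidence interval -0.17 to 0.39) for Sox3 1435192_at and 0.21 (-0.14 to 0.56) for Neurog3 1432034_at. Between the knockouts the groups did not overlap for 0 of 16, against 1.9% of all tested probe sets. Both knockout groups hold an array whose targeted genes go against its label, so these values cannot tell whether the knockouts differ.

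**Figure D3:**
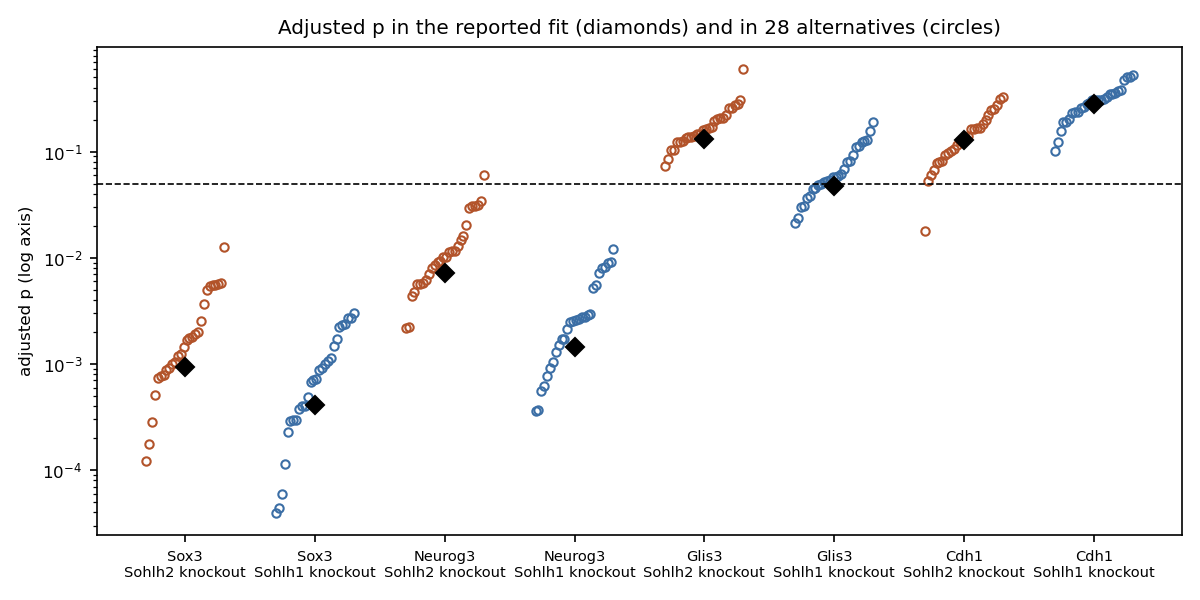
Adjusted p, on a log axis, of the brightest probe sets of Sox3, Neurog3, Glis3 and Cdh1 in the reported fit (diamonds) and in 28 alternatives (circles), for each knockout against wild type, with a dashed line at 0.05. All circles of Sox3 lie below the line, and those of Glis3 in the Sohlh1 knockout fall on both sides of it.

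Other genes of these cell states were read from lists that were written with earlier results of these data known, so their counts are descriptions. Values are for 1 probe set per gene, and over all 13702 genes 0.89% rose and 1.28% fell in the Sohlh2 knockout, 1.06% and 1.84% in the Sohlh1 knockout. Of 20 genes of the stem cell state 16 were tested. In the Sohlh2 knockout 3 rose and 1 fell, with a median log2 fold change of 0.32, and in the Sohlh1 knockout 4 rose and 1 fell, with a median of 0.28, against medians of 0.022 and 0.034 over all genes. Gfra1, the receptor that binds GDNF, averaged 738 ± 148 in Sohlh2 knockout, 709 ± 65.1 in Sohlh1 knockout and 355 ± 47.7 in wild-type testes, log2 fold changes of 1.01 and 0.97 (limma adjusted p = 0.00261 and 0.00287). Id4, an inhibitor of basic helix-loop-helix factors that marks stem cells, averaged 1556 ± 257 in Sohlh2 knockout, 1548 ± 50.1 in Sohlh1 knockout and 877 ± 130 in wild-type testes. Tcl1, a co-activator of the kinase AKT, had log2 fold changes of 0.82 and 0.65, both past the test, and Tspan8, a tetraspanin, rose by 0.67 in the Sohlh1 knockout. Pou3f1, a POU factor, was the gene that fell, by 0.84 and 0.85 on the log2 scale, and was named after its values were seen. These calls differed in how firmly they held: Id4 passed in all 28 alternatives in both knockouts, Tcl1 in 25 of 28 and 14 of 28, Tspan8 in 19 of 28 in the Sohlh1 knockout, and Pou3f1 in 11 of 28 and 16 of 28. Without the 3 doubted arrays 5 rose and 1 fell in the Sohlh2 knockout, with Ret and Utf1 added. There 4 rose and 0 fell without the arrays that go against their labels, and 5 rose and 0 fell without those of raised 3' to 5' ratio, while in the Sohlh1 knockout both left 4 and 1. Without all 3 arrays 2 rose in the Sohlh1 knockout, Gfra1 and Id4, and 1 fell.

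**Figure D4:**
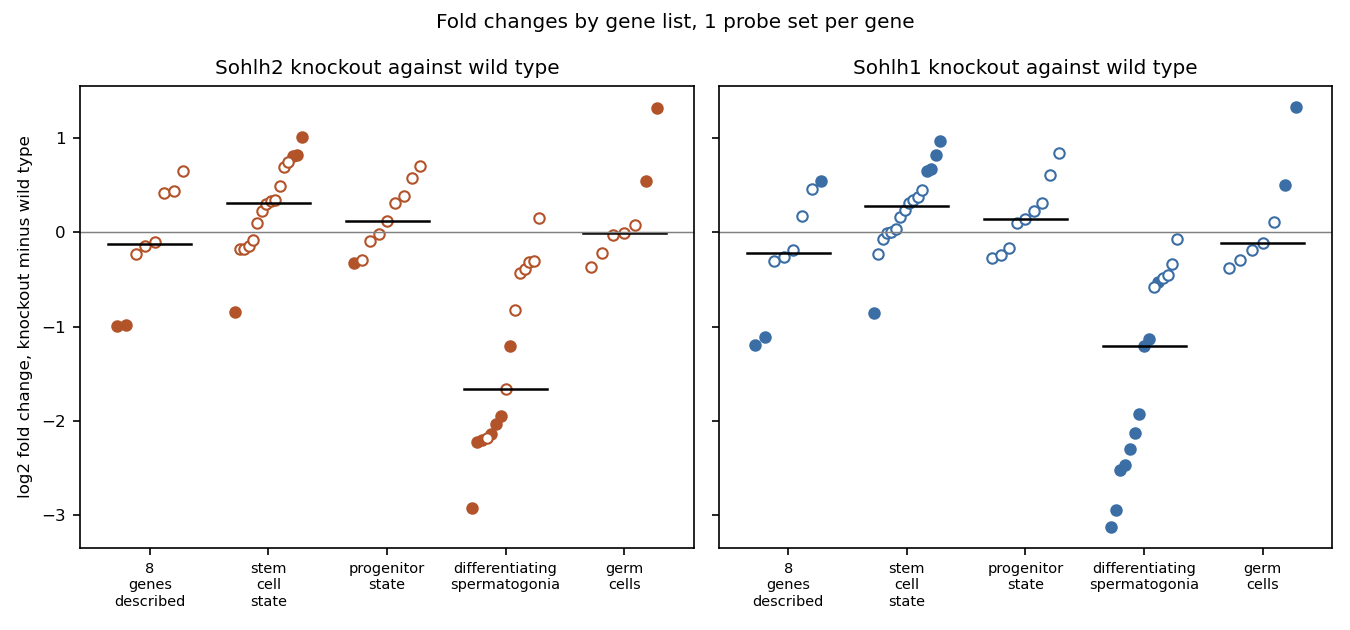
Log2 fold changes of the genes of each list against wild type in the Sohlh2 knockout and the Sohlh1 knockout, 1 probe set per gene, with a line at the list median. Filled points have an adjusted p under 0.05, and in the list of differentiating spermatogonia all of them lie below 0.

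The list of 10 progenitor genes, which leaves out the members, had 9 tested. Its median log2 fold changes were above 0, at 0.12 in the Sohlh2 knockout and 0.14 in the Sohlh1 knockout, while Sox3 and Neurog3 fell. Whether the genes of this list mark progenitors alone was not tested. In the Sohlh2 knockout 1 fell, Dmrt1, a DM domain factor that holds back meiosis, at means of 9480 in Sohlh2 knockout, 9786 in Sohlh1 knockout and 11847 in wild type (log2 fold change -0.32, limma adjusted p = 0.0352), and the call passed in 13 of 28 alternatives. It was lost without the 2 arrays that go against their labels, and kept without those of raised 3' to 5' ratio and without all 3 doubted arrays. In the Sohlh1 knockout 0 of 9 rose or fell by limma, while Dmrt1 fell there without the arrays of raised ratio. An unadjusted limma p under 0.05 was reached by 5 of 9 in the Sohlh2 knockout and by 4 of 9 in the Sohlh1 knockout, Dmrt1 with a lower signal and the others with a higher one. Sall1, a zinc finger factor, had log2 fold changes of 0.70 and 0.61 in the Sohlh2 and Sohlh1 knockouts (limma adjusted p = 0.0978 and 0.142). Piwil4, which binds piRNAs, had 0.58 and 0.84 (limma adjusted p = 0.253 and 0.0644). Tex14, needed for the bridges between germ cells, had 0.38 and 0.31 (limma adjusted p = 0.158 and 0.239). All 15 genes of the list of differentiating spermatogonia were tested, of which 7 fell in the Sohlh2 knockout and 10 in the Sohlh1 knockout, and 0 rose. Without the 3 doubted arrays 10 fell in each knockout, with Sohlh1, Sohlh2 and Ly6k added in the Sohlh2 knockout, where 9 fell when either pair of arrays was left out. In the Sohlh1 knockout 10 and 11 fell without the arrays that go against their labels and without those of raised 3' to 5' ratio. The median log2 fold changes of the list were -1.66 in the Sohlh2 knockout and -1.21 in the Sohlh1 knockout, and -1.32 and -1.40 without the 3 arrays. The list holds Sohlh1 and Sohlh2 themselves, and the Sohlh2 knockout median of -1.66 is the value of Sohlh1. The 10 genes that fell in the Sohlh1 knockout include Sohlh1, the gene targeted there. Kit, the receptor of stem cell factor, averaged 442 in Sohlh2 knockout, 453 in Sohlh1 knockout and 1739 in wild-type testes. Crabp1, which binds retinoic acid in the cytoplasm, had log2 fold changes of -2.22 in the Sohlh2 knockout and -2.47 in the Sohlh1 knockout.

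Partners and targets of the members were read from a list of 30 genes, of which 23 were tested. In each knockout 1 fell and 0 rose, and the medians were -0.051 and -0.069. The gene that fell was Uck2, a uridine-cytidine kinase of the salvage pathway that Upp1 also serves, at 579 ± 102 in Sohlh2 knockout, 567 ± 70.4 in Sohlh1 knockout and 1087 ± 137 in wild-type testes. Its log2 fold changes were -0.90 and -0.92 (limma adjusted p = 0.00457 and 0.00324). The Taf1, Taf4, Taf5, Taf6 and Tbp subunits of TFIID, and the forkhead factors Foxo3 and Foxo4, did not pass in either knockout. Foxo3 had log2 fold changes of 0.73 and 0.41 in the Sohlh2 and Sohlh1 knockouts (limma adjusted p = 0.0955 and 0.360). Foxo4 had 0.35 and 0.27 (limma adjusted p = 0.341 and 0.437). Without the 3 doubted arrays 2 of the 23 rose, Pax8 and Sox2, named after their values were seen, and Uck2 fell in the Sohlh2 knockout. Pax8 also rose there without the arrays that go against their labels, and both Pax8 and Sox2 without those of raised 3' to 5' ratio.

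Markers of other cells that a whole testis holds were read beside these results. No gene of the lists for Sertoli cells, Leydig cells, peritubular muscle, endothelium or leukocytes passed limma's test in either knockout, and 2 of their 29 tested genes had an unadjusted p under 0.05 in each. The summed signal of the Sertoli list was 66535 to 74495 in Sohlh2 knockout, 70305 to 77835 in Sohlh1 knockout and 61678 to 71013 in wild-type arrays. The list for rete testis and duct epithelium, which also use Cdh1, had 5 of 7 genes tested. Of these Epcam, an adhesion protein also made by germ cells, fell, at 744 ± 126 in Sohlh2 knockout, 841 ± 131 in Sohlh1 knockout and 1449.7 ± 121 in wild-type testes (limma adjusted p = 0.00204 and 0.00694). The other 4 tested genes of that list summed to 564 to 859 in Sohlh2 knockout, 405 to 759 in Sohlh1 knockout and 463 to 638 in wild-type arrays, so the groups overlapped. One of those genes, the duct marker Pax8, had higher signals in the knockouts, as Cdh1 did, at 180.4 ± 43.9 in Sohlh2 knockout, 164 ± 30.4 in Sohlh1 knockout and 114 ± 8.70 in wild-type testes. Its log2 fold changes of 0.57 and 0.46 did not pass (limma adjusted p = 0.203 and 0.291). In the Sohlh2 knockout it rose in all 3 settings that leave out doubted arrays, each of which leaves out the same Sohlh2 knockout array 1. The median log2 fold changes of the 5 tested genes were below 0, unlike that of Pax8, at -0.031 and -0.196 in the Sohlh2 and Sohlh1 knockouts. In the Sohlh2 knockout the median was 0.13 without that array. The part of these cells in the Cdh1 values was not tested.

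The genes most like each called member, by the smallest root mean square difference of log2 signals from their wild-type means over the 12 arrays, among 24890 candidates, were Prkag2, Slc16a10 and Uhmk1 for Sox3, Galnt12, Slc16a10 and Prkag2 for Neurog3, and Atad2, Sestd1 and Ppp3cb for Glis3. The differences were 0.0843, 0.141 and 0.146 for Sox3, 0.164, 0.174 and 0.185 for Neurog3, and 0.121, 0.125 and 0.125 for Glis3. Prkag2, a regulatory subunit of the energy sensor AMPK, averaged 719 in Sohlh2 knockout, 736 in Sohlh1 knockout and 1504 in wild-type testes.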

How the data were processed

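The authors deposited linear intensity values. The submitters' processing notes name MAS5 and GCOS, whose versions are not given in the sources read. Per the labels' protocols, labelling began at an oligo(dT) primer, which favours 3' ends. Array medians were 76.6 to 90.7, and precision is limited by having 4 arrays a group.

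Groups were taken from the labels. Intensity was turned to log2(value + 14.2), the 20th percentile of non-control values, with no further normalization. After leaving out 64 control probe sets, 28694 of 45037 reached more than 48.6 (40th percentile) on 4 or more arrays and were tested. The platform's annotation gave the gene symbols. The log2 fold changes, which are shrunk for dim probe sets, were tested two-sided with limma 3.58.1 in R 4.3.3 (eBayes with trend), in 1 fit of all 12 arrays with p-values adjusted by Benjamini and Hochberg over all tested probe sets. Figures were drawn with matplotlib 3.10.9.

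All members were named. For lists, up to 4 genes of smallest p could be named, with some exceptions stated where they occur. The TFIID subunits, Foxo4, Ret, Utf1 and Ly6k were also named outside this rule. The 3 genes most like each called member were named by the rule given with them. Members and lists were chosen with earlier results of these data known. In a simulation of 28694 probe sets with 200 changed, the fit found 24% of those changed 1.5-fold. It found 54% at 2-fold, then 90% at 3-fold, and 92% of those changed 4-fold. There were 5 false calls. The simulated noise was normal and independent, only the Sohlh1 knockout group was changed, and no array was mislabelled or of low RNA quality. The shares found therefore need not hold for the measured arrays. Alternatives were other offsets, quantile normalization, median centring, filters, 1 probe set per gene, array weights, a replicate block, and leaving out arrays.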

Additional observations from a re-analysis of the deposited data

Results flagged for a closer look

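In groups of 4 arrays, 1 array stood apart from the others in 4 of 51 groups examined, where chance gives about 1 in 20. Foxo1 probe set 1416983_s_at was 1706 on the array labelled wild type 5, against 1287 on the nearest array of the group. The dim Foxo1 probe set 1456529_at was 23.9 on wild type 3, against 9.38 on the nearest. Cdh1 was 301 on Sohlh1 knockout 5, an array whose targeted genes go against its label, against 230.2 on the nearest. Glis3 was 277 on Sohlh2 knockout 5, against 344 on the nearest.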

How the results depend on the processing

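Of 878 values of single probe sets under up to 28 alternatives, 850 kept their direction and their side of the threshold, 19 lost a call, 1 gained one and 8 changed sign. Most of the 850 were values of uncalled probe sets that stayed uncalled. Of the calls, Sox3 held in 28 of 28 in both knockouts. Neurog3 held in 27 of 28 in the Sohlh2 knockout and 28 of 28 in the Sohlh1 knockout, and Glis3 in 10 of 28 in the Sohlh1 knockout. The lost calls were those of Glis3 in the Sohlh1 knockout, apart from 1 for Neurog3 in the Sohlh2 knockout, and the gained call was Cdh1 in the Sohlh2 knockout with array weights (0.81, limma adjusted p = 0.0178). Member counts ran from 1 to 3 in the Sohlh2 knockout and from 2 to 3 in the Sohlh1 knockout, and from 2 to 2 and from 2 to 3 with an array left out. Over all probe sets the calls ran from 98 to 1075 in the Sohlh2 knockout (445 as reported), from 230 to 1238 in the Sohlh1 knockout (600 as reported), and from 0 to 11 between the knockouts. With an array left out these counts moved by over 1.5 times in the Sohlh2 knockout without wild type 4, 5 or 6 or Sohlh2 knockout 3-1, 4 or 5 (202 to 287). In the Sohlh1 knockout they did so without wild type 4, 5 or 6 or any Sohlh1 knockout array (230 to 374) and without Sohlh2 knockout 1 (1238). The cause of the sign changes was not tested. Foxo1 1416983_s_at in the Sohlh1 knockout was 0.033 with median centring, 0.10 without wild type 5 and 0.0019 without Sohlh1 knockout 3, and ran from -0.059 to 0.10 with an array left out.

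Deviations from group means correlated by -0.117 to 0.101 between arrays of the same replicate number, with 3-1 read as 3. Arrays of different numbers were not compared, so whether the numbers pair the arrays was not tested. With the replicate number as a block, and 3-1 taken as its own number, 1 member was called in the Sohlh2 knockout, and Neurog3 1432034_at there was -1.09 (limma adjusted p = 0.0597). The block also changed the sign of Zbtb16 1419874_x_at (-0.0082 with 3-1 read as 3, -0.11 as its own number), Foxo1 1416983_s_at (-0.029 and -0.011) and Taf4b 1431193_at (0.20 as its own number) in the Sohlh2 knockout.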
